A study of Mus musculus with 18 samples.

Results

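The genes described here mark the cells that make oligodendrocytes, the glia that wrap axons in myelin. They comprised 10 genes of the 55421 listed in the count table, namely Pdgfra, Cspg4, Ptprz1, Olig1, Olig2, Sox10, Nkx2-2, Gpr17, Bcas1 and Enpp6, and they were found by matching each listed Ensembl identifier to these gene symbols. All 10 had enough counts to be tested, among 20914 genes in all. The striatum was dissected from 18 mice aged 12 to 14 months, given as strain C57BL/6, and total RNA from each mouse was sequenced as 1 library. There were 5 WT control mice and 5 zQ175 mice, a Huntington's disease model that is heterozygous for an expanded knock-in allele of the huntingtin gene Htt. A further 3 CK2a'(+/-) mice lacked 1 allele of Csnk2a2, which encodes the CK2a' catalytic subunit of casein kinase 2, and 5 zQ175:CK2a'(+/-) mice carried both changes. The labels name neither the sex nor a sequencing batch of any single library. The study's methods state that WT and zQ175:CK2a'(+/-) mice were mostly female and zQ175 and CK2a'(+/-) mice mostly male, so sex make-up differed between compared groups.

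Oligodendrocytes arise from precursor cells that remain scattered through the adult brain and keep dividing. A precursor carries the growth factor receptor PDGFRA and the proteoglycan NG2 on its surface. When it commits to differentiate it loses these, passes through a short stage marked by GPR17 and then by BCAS1 and ENPP6, and finally switches on the myelin proteins. OLIG1, OLIG2, SOX10 and NKX2-2 are the transcription factors of this lineage. OLIG2 and SOX10 act from the precursor to the mature cell, so their genes are not exclusive to precursors, and Bcas1 is still transcribed by cells that are forming myelin. Several of these genes are also used elsewhere in the brain, with Cspg4 in pericytes, Pdgfra in vascular fibroblasts and Ptprz1 in astrocytes.

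Promoter sequences, 300 bases each from 250 before to 50 after the transcription start that RefSeq uses, are shown for Olig2 and Pdgfra because these genes came nearest to a difference between genotypes below. The sequences are RefSeq's on GRCm38.p6, which held a promoter for 6 of the 10 genes. Olig2 lay at chr16:91225300-91225599 and Pdgfra at chr5:75152001-75152300, both on the plus strand. RefSeq's starts differ from the outer gene bounds of the annotation given further on. Capitals mark matches on either strand to CANNTG, the E-box bound by helix-loop-helix factors such as OLIG2, or to ACAAAG and ACAATG, core letters recognised by SOX factors.
Olig2 promoter: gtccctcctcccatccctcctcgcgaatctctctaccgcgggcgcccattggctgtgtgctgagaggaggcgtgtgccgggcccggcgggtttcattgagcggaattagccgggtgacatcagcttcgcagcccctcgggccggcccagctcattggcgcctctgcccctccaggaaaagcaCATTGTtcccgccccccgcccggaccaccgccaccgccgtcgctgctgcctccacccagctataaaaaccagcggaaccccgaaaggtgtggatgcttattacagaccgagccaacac
Pdgfra promoter: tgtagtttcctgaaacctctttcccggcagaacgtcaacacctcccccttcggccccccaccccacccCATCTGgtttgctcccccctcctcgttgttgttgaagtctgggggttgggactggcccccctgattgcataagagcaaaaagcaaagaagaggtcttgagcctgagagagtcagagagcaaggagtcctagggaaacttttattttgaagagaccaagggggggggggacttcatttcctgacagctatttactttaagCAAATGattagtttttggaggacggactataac
The Olig2 window held 1 match to ACAATG, read on the minus strand and so shown as CATTGT, and no E-box. The Pdgfra window held 2 E-boxes and neither SOX core. No matches overlapped. Among 32851 promoters of the same length, 72.3% held CANNTG, 18.7% held ACAAAG, 12.6% held ACAATG and 28.6% held either SOX core, so these letters are common and are a description only.

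Total counts per library ranged from 13612381 to 22702547, and a gene's level is given as RPKM, reads per kilobase of summed exon length, scaled to library size with TMM factors. Csnk2a2 followed the labels. It lay at 3.07 to 3.92 RPKM in the 10 mice with both CK2a' alleles and at 1.53 to 2.08 RPKM in the 8 mice with 1 allele. Striatal projection neuron markers, which define the tissue, summed over 9 genes to 1460 to 6432 CPM, counts scaled to library size without gene length, and none was at 0. Before the results, 5 libraries have to be set apart. In WT replicates 1 and 3, CK2a'(+/-) replicate 1 and zQ175:CK2a'(+/-) replicate 2, the 7 choroid plexus markers summed to between 983.5 and 3108 CPM, against 12.38 to 22.38 CPM in every other library. In zQ175 replicate 5 the 7 markers of cortical excitatory neurons summed to 330.6 CPM, against at most 93.91 CPM elsewhere. Values without these libraries are given for the results of lowest p, and their part in the results was not tested.

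All 10 genes were transcribed in every library, at levels that spanned a wide range. Bcas1, a gene of newly myelinating cells, was the highest at a mean of 83.0 RPKM over the 18 libraries, followed by Olig1 at 36.6 RPKM, Sox10 at 16.6 RPKM and Ptprz1 at 15.4 RPKM. Olig2 averaged 9.26 RPKM and Pdgfra 3.93 RPKM. Gpr17 followed at 2.91 RPKM, Enpp6 at 2.71 RPKM, Nkx2-2 at 2.57 RPKM and Cspg4, the gene of NG2, at 1.78 RPKM. The ranges over libraries of neighbours in this order overlapped for Sox10 with Ptprz1, for Pdgfra with Gpr17, and for each step from Gpr17 through Enpp6 and Nkx2-2 to Cspg4, so these orders are not firm. These levels rested on 50 to 9123 counts per library, the lowest being Nkx2-2 in CK2a'(+/-) replicate 3 and the highest Bcas1 in CK2a'(+/-) replicate 2. Reads of a gene and of an overlapping gene on the other strand cannot be told apart without strand. This bears on Gpr17, which overlaps Lims2 (1949 counts in all against 4929 for Gpr17), and on Nkx2-2, which overlaps Nkx2-2os and 6430503K07Rik (518 and 134 counts against 2416).

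**Figure D1:**
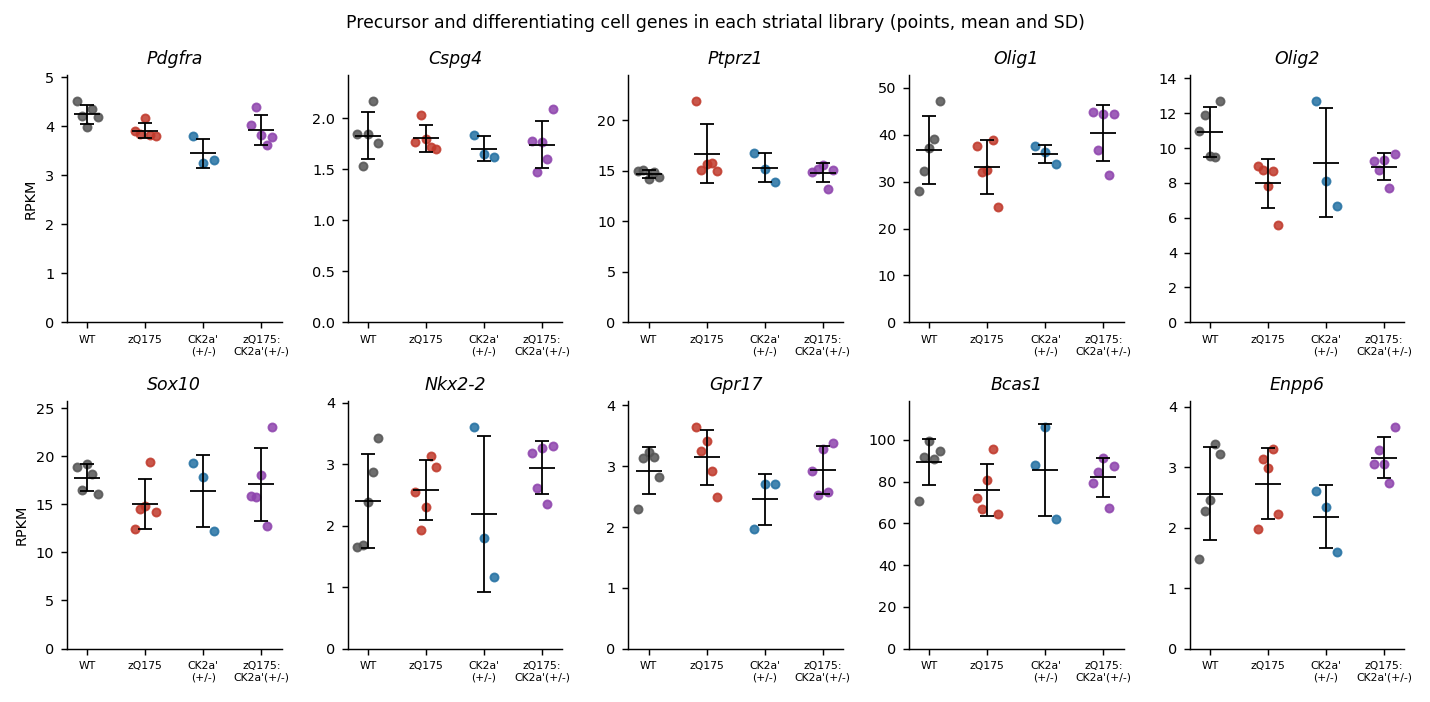
Levels of the 10 genes in RPKM (vertical axis, from 0) in each of the 18 libraries by genotype, with points for mice in replicate order and bars for the mean and SD. Olig2 shows the zQ175 mice at 5.57 to 9.0 RPKM, below the WT mice at 9.48 to 12.7 RPKM, while for most other genes the groups overlap.

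None of the 10 genes passed the test in any comparison of genotypes. With edgeR's quasi-likelihood test at a Benjamini-Hochberg adjusted p under 0.1, 0 of 10 were called in zQ175 against WT, where 1.1% of all 20914 genes were called. The same count of 0 of 10 was found in zQ175:CK2a'(+/-) against WT, in zQ175:CK2a'(+/-) against zQ175 and in CK2a'(+/-) against WT, where 0.0143% of all genes were called in each. It was also 0 of 10 in zQ175:CK2a'(+/-) against CK2a'(+/-), with 0.593% of all genes called, and in the interaction of both genotypes, with 0.00478%. At an unadjusted p under 0.05 the counts in these 6 comparisons, in the order given, were 1, 0, 1, 1, 2 and 1 of the 10 genes, beside 13.9%, 9.13%, 6.27%, 4.48%, 9.19% and 5.39% of all genes. DESeq2 called 1 of the 10, Olig2 in zQ175 against WT, where it called 5.26% of the genes it adjusted. It called none of them in the other comparisons, where it called 0.725%, 0.145%, 0.0293%, 1.47% and 0.103% of genes, in the same order. The 95% intervals of the log2 fold changes lay within 1 on either side of 0 for all 10 genes in the first 4 comparisons and for 8 of 10 in the last 2. Smaller differences remain possible. With the level of Xist, which females express, as a covariate, edgeR also called 0 of the 10 genes in each comparison. The p-values measure the spread between these mice.

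**Figure D2:**
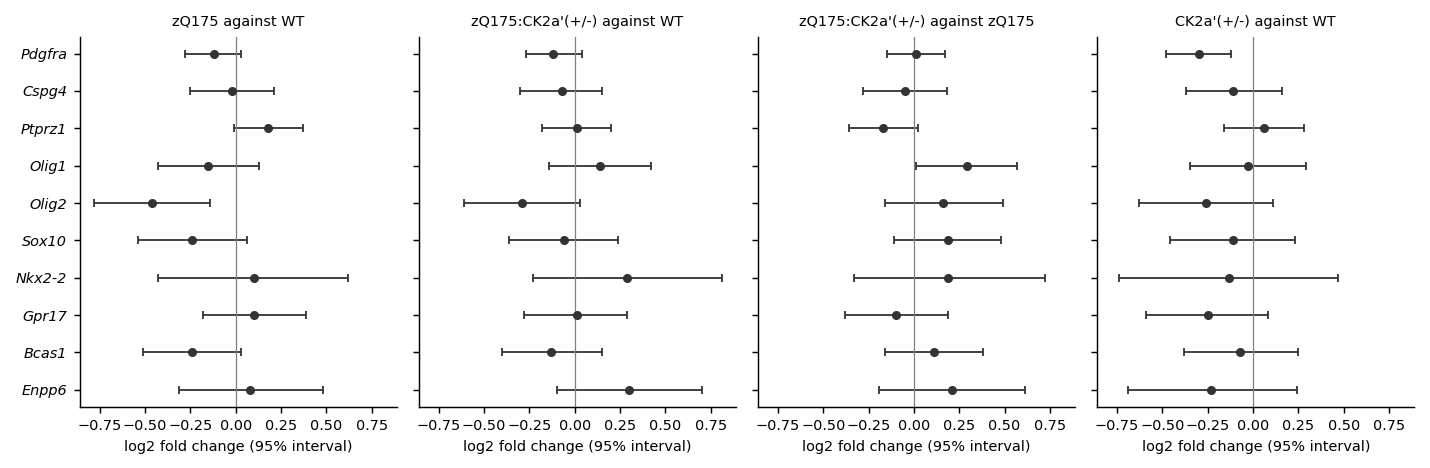
Log2 fold changes (horizontal axis) of the 10 genes from edgeR in 4 comparisons, with 95% intervals as bars and a line at 0. The intervals of Olig2 in zQ175 against WT, of Olig1 in zQ175:CK2a'(+/-) against zQ175 and of Pdgfra in CK2a'(+/-) against WT lie to one side of 0, and none of these genes had an adjusted p under 0.1.

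Comparing zQ175 with WT mice addresses what the expanded Htt allele goes along with in this lineage. Olig2 (ENSMUSG00000039830, GRCm38 chromosome 16, 91225457 to 91228677, plus strand), a helix-loop-helix factor required to make the lineage, was at 11, 11.9, 9.55, 9.48 and 12.7 RPKM in the WT mice. It was at 9.0, 8.75, 7.85, 8.71 and 5.57 RPKM in the zQ175 mice. Every zQ175 library was below every WT library, a separation found for 1.19% of all genes tested, and the lowest value belonged to replicate 5. The log2 fold change was -0.46 (SE 0.154, edgeR adjusted p = 0.179), a level 0.728 times that of WT. DESeq2 gave -0.45 with an adjusted p of 0.0961, so the call depended on the tool. Without zQ175 replicate 5 the log2 fold change of Olig2 was -0.35 (edgeR adjusted p = 0.338), and without the 5 libraries set apart it was -0.41 (edgeR adjusted p = 0.665). Over all alternatives the edgeR and DESeq2 adjusted p of Olig2 ran from 0.0961 to 0.665. Since whole tissue was sequenced, fewer cells of a type and less RNA per cell cannot be told apart.

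Olig1 (ENSMUSG00000046160, chromosome 16, 91269772 to 91271933, plus strand), a neighbour of Olig2 and a factor of later maturation, did not show the same separation. It ranged from 28.0 to 47.2 RPKM in WT and from 24.5 to 38.9 RPKM in zQ175 mice, which overlapped, with a log2 fold change of -0.15 (SE 0.134, edgeR adjusted p = 0.671). The ratio of Olig1 to Olig2 in RPKM averaged 3.39 ± 0.717 for WT, 4.17 ± 0.312 for zQ175 and 4.51 ± 0.338 for zQ175:CK2a'(+/-) (SD over 5 mice each), and 4.16 ± 1.08 for the 3 CK2a'(+/-) mice (SD). These ratios overlapped between WT, at 2.54 to 4.11, and zQ175, at 3.67 to 4.47, and were not tested.

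Sox10 (ENSMUSG00000033006, chromosome 15, 79154908 to 79165240, minus strand), which turns on myelin genes, was at 18.9, 16.5, 19.2, 18.1 and 16.1 RPKM in WT mice and at 12.4, 14.5, 14.8, 19.4 and 14.2 RPKM in zQ175 mice. All zQ175 values but that of replicate 4, the highest of both groups, lay below the WT values. Its log2 fold change was -0.24 (SE 0.143, edgeR adjusted p = 0.476). Bcas1 (ENSMUSG00000013523, chromosome 2, 170346991 to 170427845, minus strand) was at 70.8, 91.6, 99.5, 91.0 and 94.7 RPKM in WT mice and 72.0, 67.0, 80.9, 95.4 and 64.5 RPKM in zQ175 mice. Replicate 4 was again the highest zQ175 library, WT replicate 1 lay among the zQ175 values, and the log2 fold change was -0.24 (SE 0.130, edgeR adjusted p = 0.434). Nkx2-2, a homeodomain factor that times differentiation, was the least steady of the transcription factors, at 1.65 to 3.42 RPKM in WT and 1.93 to 3.14 RPKM in zQ175 mice, with a log2 fold change of 0.10 (SE 0.251).

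Among the surface proteins of precursors, Pdgfra (ENSMUSG00000029231, chromosome 5, 75152292 to 75198215, plus strand) was at 4.51, 4.21, 3.99, 4.34 and 4.18 RPKM in WT mice and at 3.89, 3.84, 4.17, 3.81 and 3.80 RPKM in zQ175 mice. Only zQ175 replicate 3 reached into the WT range. The log2 fold change was -0.12 (SE 0.0757, edgeR adjusted p = 0.497), with a 95% interval from -0.28 to 0.03. Cspg4 was nearly level, with a log2 fold change of -0.02 and an interval from -0.25 to 0.21, and the 8 mural cell markers that bear on it summed to 101.8 to 114.4 CPM in WT and 87.89 to 136.1 CPM in zQ175 mice, whose part was not tested. Ptprz1 (ENSMUSG00000068748, chromosome 6, 22875502 to 23052916, plus strand), a receptor phosphatase that binds pleiotrophin, was at 14.2 to 15.1 RPKM in WT mice and at 21.9, 15.1, 15.7, 15.8 and 15.0 RPKM in zQ175 mice, where replicate 1 stood alone above the rest. Its log2 fold change was 0.18 (SE 0.0916, edgeR adjusted p = 0.382), and without zQ175 replicate 1 it was 0.06 (edgeR adjusted p = 0.756). The summed level of 9 astrocyte markers, which bears on Ptprz1, was 3204 to 4553 CPM in WT and 3093 to 3679 CPM in zQ175 mice, and its part in the Ptprz1 level was not tested.

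Genes of the committed stage did not separate either. Gpr17, a receptor that holds back maturation, was at 2.29 to 3.24 RPKM in WT and 2.50 to 3.64 RPKM in zQ175 mice (log2 fold change 0.10, SE 0.137). Enpp6 (ENSMUSG00000038173, chromosome 8, 46986887 to 47096762, plus strand), a choline phosphodiesterase of newly forming oligodendrocytes, was at 1.49 to 3.38 RPKM in WT and 1.98 to 3.30 RPKM in zQ175 mice (log2 fold change 0.08, SE 0.192). Across the 10 genes 4 fold changes were above 0 and 6 below, and their median was -0.07 on the log2 scale, beside 0.004 over all genes tested.

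Lists of related genes were set beside these values. Of 23 genes of mature myelin, all 23 had a log2 fold change below 0 in zQ175 against WT and 9 were called lower, among them Mbp, Mobp, Cldn11, Mal, Car2 and Tspan2, beside 0.712% of all genes called lower. Their median was -0.42. Mbp encodes myelin basic protein, and it fell from 331 ± 40.0 to 221 ± 42.3 RPKM (SD, n = 5 each, log2 fold change -0.58, edgeR adjusted p = 0.0469). Cldn11, a tight junction protein of myelin, had a log2 fold change of -0.67 (edgeR adjusted p = 0.0442), as did Mal, a myelin lipid raft protein (edgeR adjusted p = 0.0442). Car2, a carbonic anhydrase of oligodendrocytes, had -0.66 (edgeR adjusted p = 0.0442). Summed over the list, mature myelin genes came to 7513, 7734, 9503, 7125 and 7753 CPM in WT mice. They came to 4701, 5416, 5272, 6898 and 4864 CPM in zQ175 mice, without overlap.

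The calls, though less so the fold changes, varied with the fit and with single libraries. Fitting only the WT and zQ175 libraries gave 0 calls among the 23 genes and 0 among all genes tested. Without WT replicate 3, the highest in myelin genes, or without zQ175 replicate 5, edgeR called 0 of the 23 genes and 0 of all genes tested, while all 23 myelin genes stayed below 0 with medians of -0.38 and -0.39, and 15 and 14 of them had an unadjusted p under 0.05. Without WT replicate 1 it called 2 of the 23 and 10 of all genes. Without the 5 libraries set apart, 0 of 23 and 1 of all genes were called, 22 of 23 were lower and the median was -0.39. At an unadjusted p under 0.05 the number was 17 of 23 with all libraries and 12 of 23 without those 5. Of 9 striatal projection neuron markers edgeR called 3 lower in the same comparison, beside 0.712% of all genes called lower. The list summed to 2678 to 6411 CPM in WT and 1460 to 2926 CPM in zQ175 mice. By edgeR 8 of the 9 were lower at an unadjusted p under 0.05, which 13.9% of all genes had in either direction. All 6 cortical excitatory neuron markers tested were higher at that p, with a median of 1.62, and the list of 7 summed to 23.82 to 55.48 CPM in WT and 60.89 to 330.6 CPM in zQ175 mice. All 7 choroid plexus markers were below 0, with a median of -2.84 and 3 at that p, and summed to 15.25 to 2086 CPM and 13.54 to 22.36 CPM. All 7 microglia markers were below 0 as well, with 2 at that p, and summed to 207.1 to 242.6 CPM and 169.3 to 223.4 CPM. The part of these cells in the myelin values was not tested. Whether the difference in myelin genes exceeded that in the 10 genes was not tested.

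Precursor and differentiation genes outside the 10 did not share this one-sided pattern. Of 16 other precursor genes, 0 were called by edgeR, their median was 0.04, and the lowest adjusted p was 0.105 for Tnr, an extracellular matrix protein of perineuronal nets and precursors (log2 fold change 0.27), which DESeq2 called. Of 15 other differentiation genes 11 were above 0 and 4 below, with a median of 0.18, and edgeR called 0. Their summed level was 712.6 CPM in zQ175 replicate 1, against 395.9 to 494.4 CPM in the other zQ175 mice. This library was also the highest in the other precursor genes, at 827.9 CPM, and the lowest in striatal projection neuron markers, at 1460 CPM. Without it the median of the differentiation genes was 0.07, with 9 above and 6 below 0. The lowest unadjusted p in that list belonged to Cemip2, a hyaluronidase (log2 fold change 0.58, edgeR adjusted p = 0.105), Nkx6-2, a homeodomain factor of oligodendrocytes (-0.52, edgeR adjusted p = 0.191) and Rras2, a small GTPase (0.79, edgeR adjusted p = 0.302). Of these, DESeq2 called Cemip2 and Nkx6-2.

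Ligands and receptors that act on precursors gave 0 calls among 22 genes with edgeR and 2 with DESeq2. DESeq2 called Mdk, the growth factor midkine (edgeR log2 fold change -0.70, edgeR adjusted p = 0.113), and Lingo1, a receptor component that restrains differentiation (0.34, edgeR adjusted p = 0.161). Ptn, the ligand pleiotrophin, had -0.23 (edgeR adjusted p = 0.258). Among 26 transcription regulators of the lineage edgeR called 0 and DESeq2 called 3, namely Id2, Id4 and Nfib. DESeq2's calls in these lists stand beside the 5.26% of all genes it called in this comparison. Unadjusted p under 0.05 was reached by 2 of the 16 precursor genes, 4 of the 15 differentiation genes, 5 of the 22 ligands and receptors and 5 of the 26 regulators, beside 13.9% of all genes. Of 11 cell division genes 8 were tested, edgeR and DESeq2 called 0, and 1 of them, Top2a, had an unadjusted p under 0.05 (log2 fold change -1.13, edgeR adjusted p = 0.282).

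**Figure D3:**
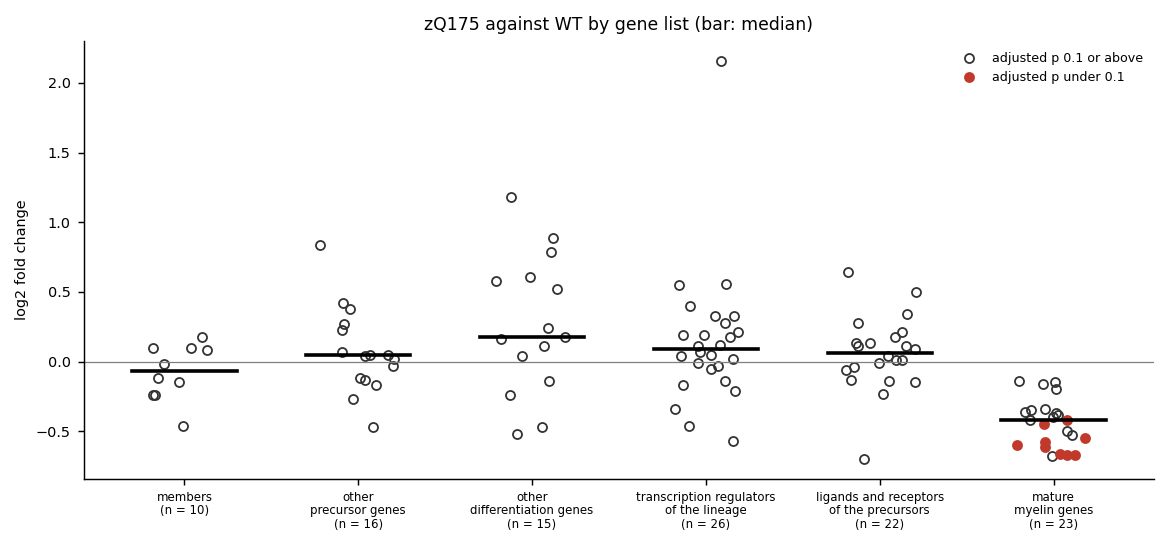
Log2 fold changes in zQ175 against WT (vertical axis) of single genes in 6 lists, with a bar at the median and filled points at an edgeR adjusted p under 0.1. The 10 genes ("members") lie from -0.46 to 0.18 around a median of -0.07, whereas all 23 mature myelin genes lie below 0 with 9 filled.

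In zQ175:CK2a'(+/-) against WT mice, Olig2 again had the lowest fold change of the 10, with levels of 9.26, 8.77, 9.29, 7.68 and 9.67 RPKM. The last of these lay within the WT range, so the groups overlapped, and the log2 fold change was -0.29 (SE 0.154, edgeR adjusted p = 0.585). Without the 5 libraries set apart it was -0.34 (unadjusted p = 0.0255, edgeR adjusted p = 0.999). The 10 genes split into 5 above and 5 below 0, with a median of -0.03 beside -0.009 over all genes. Mature myelin genes gave 0 calls with edgeR and 1 with DESeq2, with 7 of 23 at an unadjusted p under 0.05, beside 9.13% of all genes, 19 of 23 below 0 and a median of -0.18. All 9 striatal projection neuron markers were below 0 as well, with a median of -0.46, 5 at that p and 0 called by either tool, and they summed to 2678 to 6411 CPM in WT and 2405 to 3430 CPM in zQ175:CK2a'(+/-) mice. At that p were also 2 of 9 astrocyte and 2 of 7 vascular fibroblast markers, all 4 lower, and the part of these cells in the myelin values was not tested. Of the lists of precursors, differentiation, ligands and regulators, edgeR called 0 genes and DESeq2 called Id4.

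Losing 1 CK2a' allele in zQ175 mice was the study's central question. Between zQ175:CK2a'(+/-) and zQ175 mice, 7 of the 10 genes were higher and 3 lower in the former, with a median of 0.14 beside -0.005 over all genes. Olig1 had the lowest p, at 44.9, 36.8, 44.4, 31.5 and 44.5 RPKM in zQ175:CK2a'(+/-) mice and 37.6, 32.1, 32.5, 38.9 and 24.5 RPKM in zQ175 mice. Of these, 3 of the 5 zQ175:CK2a'(+/-) values lay above all zQ175 values and the others overlapped. The log2 fold change was 0.29 (SE 0.134, unadjusted p = 0.0436, adjusted p = 0.767 by edgeR). It was 0.20 without zQ175 replicate 5, the lowest library (unadjusted p = 0.14 by edgeR), and 0.24 without the 5 libraries set apart (unadjusted p = 0.0969 by edgeR). Sox10 reached its highest value of all mice, 23.0 RPKM, in zQ175:CK2a'(+/-) replicate 5 but had a log2 fold change of only 0.19 (SE 0.144). Ptprz1 went the other way at -0.17 (SE 0.0917), and without zQ175 replicate 1 its fold change was -0.05. Mature myelin genes were above 0 for 22 of 23 with a median of 0.26, and edgeR called 0, with 9 at an unadjusted p under 0.05, beside 6.27% of all genes. Of the markers of other cell types edgeR called 0, while DESeq2 called Slc17a7, Slc30a3 and Tbr1 of the cortical neurons lower and Ttr of the choroid plexus higher. At an unadjusted p under 0.05 were 5 of 6 tested cortical neuron markers, all 6 below 0 with a median of -1.84, and 4 of 7 choroid plexus markers, all 7 above 0. They also included 4 of 7 microglia markers, 6 of them above 0, and the part of these markers was not tested.

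Between CK2a'(+/-) and WT mice, Pdgfra had the lowest p of the 10 genes with all libraries in the fit. It was at 3.79, 3.24 and 3.31 RPKM in the CK2a'(+/-) mice, all below the lowest WT value of 3.99 RPKM. Of all genes tested, 1.76% were lower without overlap in this comparison. The log2 fold change was -0.30 (SE 0.0882, unadjusted p = 0.00261), with an edgeR adjusted p of 0.927. Pdgfra was the steadiest of the 10 genes, with an SD within groups of 0.0866 on the log2 scale, at the 1.49th percentile of all genes tested. Vascular fibroblast markers, another source of Pdgfra, summed over 7 genes to 14.32 to 32.27 CPM in WT and 15.49 to 20.96 CPM in CK2a'(+/-) mice, and their part was not tested. Without the 5 libraries set apart it was -0.37 (edgeR adjusted p = 0.906). Over the alternatives the log2 fold change of Pdgfra here stayed between -0.37 and -0.26, with adjusted p from 0.327 to 1.00.

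In all, 9 of the 10 genes were below 0 in this comparison, with a median of -0.12 beside -0.006 over all genes, and only 3 CK2a'(+/-) mice contributed. The spread among these 3 was wide for Olig2, at 12.7, 8.09 and 6.70 RPKM, and for Nkx2-2, at 3.6, 1.80 and 1.16 RPKM. Replicate 1, with high choroid plexus markers, was the highest for both genes. Without the 5 libraries set apart, which leaves 2 CK2a'(+/-) mice, the order of the genes differed, with Olig2 lowest in p. The log2 fold change against WT went from -0.26 to -0.62 for Olig2 (unadjusted p = 0.00192, edgeR adjusted p = 0.743), from -0.13 to -0.84 for Nkx2-2 (unadjusted p = 0.0178, edgeR adjusted p = 1) and from -0.23 to -0.58 for Enpp6 (unadjusted p = 0.0304, edgeR adjusted p = 1). Mature myelin genes gave 0 calls by edgeR, with 15 of 23 above 0 and none at an unadjusted p under 0.05. Other lists were one-sided too. All 9 striatal projection neuron markers (median 0.31), 7 of 9 astrocyte and 6 of 7 endothelial markers were above 0. All 7 choroid plexus markers (median -0.63) and all 7 microglia markers were below 0. By edgeR 0 of these markers were called, and their part in the values of the 10 genes was not tested.

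Between zQ175:CK2a'(+/-) and CK2a'(+/-) mice, which differ in the zQ175 allele, Enpp6 was at 3.06, 3.28, 3.05, 2.74 and 3.66 RPKM in the former and 2.61, 2.34 and 1.6 RPKM in the latter. The groups did not overlap, as for the 3.86% of all genes that were higher without overlap here. Its log2 fold change was 0.53 (SE 0.225, unadjusted p = 0.0292, edgeR adjusted p = 0.462), and 0.66 without the 5 libraries set apart (edgeR adjusted p = 0.459). Nkx2-2 went from 0.42 with all libraries to 1.03 without those 5, where it had the lowest p of the 10 genes (unadjusted p = 0.00404, edgeR adjusted p = 0.307). Pdgfra was at 4.02, 4.39, 3.82, 3.61 and 3.77 RPKM in the zQ175:CK2a'(+/-) mice, with a log2 fold change of 0.19 (SE 0.0881, unadjusted p = 0.0478, edgeR adjusted p = 0.536), and 0.22 without the 5 libraries set apart (edgeR adjusted p = 0.636). Vascular fibroblast markers, another source of Pdgfra, were below 0 for 5 of 7 and above for 2, with a median of -0.52. By edgeR 2 of them were lower at an unadjusted p under 0.05, and their part was not tested. Of the 23 mature myelin genes, Mobp, Mal, Car2 and Tspan2 were called lower by edgeR, beside 0.368% of all genes called lower, and their log2 fold changes ran from -0.60 to -0.57. The list as a whole differed less, with a median of -0.18, 18 of 23 below 0 and 5 above. By edgeR 7 of the 23 had an unadjusted p under 0.05, beside 9.19% of all genes. No myelin gene was called with the Xist level as a covariate or without the 5 libraries set apart, and 0 or 1 were called when any 1 mouse of either group was left out. With only these groups in the fit, or with no filter on low counts, edgeR called 6. DESeq2 called 6 myelin genes lower, Mobp, Mal, Car2 and Tspan2 among them, and called Tnr of the precursor list (edgeR log2 fold change 0.30, edgeR adjusted p = 0.169) and Zfp488, a zinc finger factor of oligodendrocyte differentiation (1.21, edgeR adjusted p = 0.191), higher, beside 1.47% of the genes it adjusted. All 9 striatal projection neuron markers were below 0 here, with a median of -0.78, 2 called by edgeR and 7 at an unadjusted p under 0.05, and they summed to 4529 to 6432 CPM in CK2a'(+/-) and 2405 to 3430 CPM in zQ175:CK2a'(+/-) mice. Of 9 astrocyte markers, 6 were below 0 and 5 of these had an unadjusted p under 0.05, with sums of 3991 to 4492 CPM and 3345 to 3679 CPM in the same order. The part of these cells in the myelin values was not tested. Id4, an inhibitor of helix-loop-helix factors, was called lower among the lineage regulators (-0.81, edgeR adjusted p = 0.0759), and DESeq2 called it too (adjusted p = 0.00732). The call by edgeR was lost with the Xist level as a covariate (-0.74, adjusted p = 0.166) and with the robust fit (adjusted p = 0.139). It was kept by edgeR with only these groups in the fit (adjusted p = 0.000345) and with no filter on low counts (adjusted p = 0.0011), so it depended on the fit. Without the 5 libraries set apart Id4 had -0.72 (edgeR adjusted p = 0.323), and it was not called by edgeR when any 1 mouse of either group was left out (-0.86 to -0.73, adjusted p 0.124 to 0.252).

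In the interaction, which asks whether the zQ175 difference depends on the CK2a' allele, 9 of 10 genes were above 0 with a median of 0.30 on the log2 scale, beside -0.002 over all genes. Pdgfra had 0.31 (SE 0.116, unadjusted p = 0.0147, edgeR adjusted p = 0.916), which was 0.33 without the 5 libraries set apart (edgeR adjusted p = 1), and Olig2 had 0.42 (SE 0.236, edgeR adjusted p = 0.916). Without those 5 libraries Olig2 had 0.69 (unadjusted p = 0.0046), Enpp6 went from 0.44 to 0.72 (unadjusted p = 0.0316) and Nkx2-2 from 0.33 to 1.13 (unadjusted p = 0.0113), each with an edgeR adjusted p of 1. The comparisons share mice, so these values do not add to those above independently. The interaction draws on the 3 CK2a'(+/-) mice, whose spread is given above. Other lists shifted as well. Above 0 were 20 of 23 mature myelin genes (median 0.19), 6 of 7 microglia markers and all 7 choroid plexus markers (median 3.19). Below 0 were 5 of 6 tested cortical neuron markers (median -1.77) and 7 of 9 striatal projection neuron markers (median -0.09). By edgeR 0 genes of these lists were called, and their part was not tested.

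The 10 genes varied together only in part from mouse to mouse. After the group means of log2 CPM were removed, 37 of the 45 pairs of genes correlated above 0 over the 18 libraries, with a median Pearson correlation of 0.33 and a range from -0.42 to 0.67. Bcas1 and Enpp6 made up the highest pair at 0.67, and Bcas1 and Sox10 had 0.65. The lowest was Pdgfra with Gpr17 at -0.42. All points share libraries and their dissection, so these are descriptions.

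**Figure D4:**
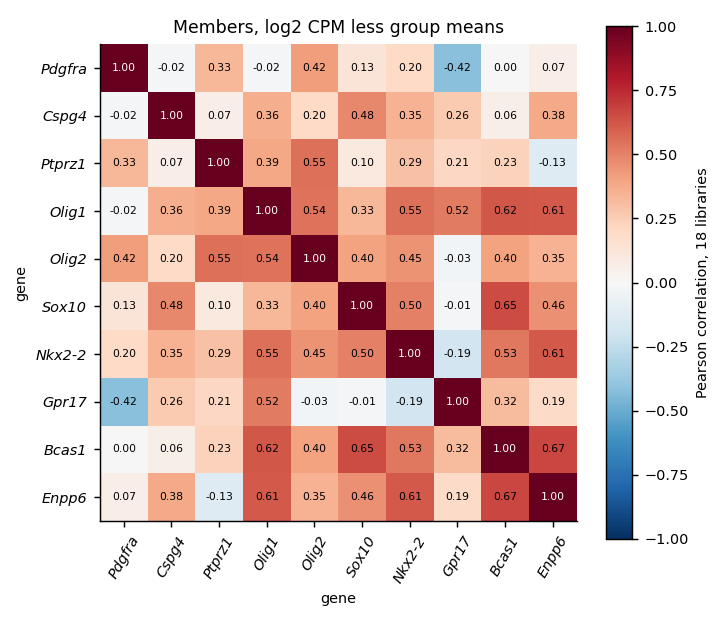
Pearson correlations between the 10 genes over 18 libraries after subtracting group means of log2 CPM (colour from -1 to 1, value in each cell). Bcas1 correlates with Enpp6, Sox10 and Olig1 at 0.67, 0.65 and 0.62, and Pdgfra with Gpr17 at -0.42.

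The genes differed in how closely they followed mature myelin. With the mean of the 23 mature myelin genes, Bcas1 correlated at 0.81 and Sox10 at 0.79, Olig1 at 0.59 and Enpp6 at 0.53. Nkx2-2 had 0.44, Olig2 0.34, Cspg4 0.27, Gpr17 0.22, Ptprz1 0.05 and Pdgfra -0.07. With the mean of the 16 other precursor genes the order changed, as Ptprz1 had 0.79, Olig1 0.68, Olig2 0.57, Nkx2-2 0.55 and Bcas1 0.50. Gpr17 had 0.34, Sox10 0.28, Enpp6 0.27, Cspg4 0.25 and Pdgfra 0.10. The value for Ptprz1 may rest on 1 library. zQ175 replicate 1 was the highest of all for Ptprz1, at 21.9 RPKM, and for these precursor genes, at 827.9 CPM. Its part in the correlation was not tested.

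The gene whose pattern was most like the mean of the 10 was Chd7, a chromatin remodeller, at a Pearson correlation of 0.94 over 18 libraries. Plxdc2, Spsb4 and Ptprd followed at 0.90, Fgf1, Tmcc3 and 4632415L05Rik at 0.89, Kcng4 and Cdh6 at 0.88 and Nacc2 at 0.87. Taken singly, Olig1 was most like Abca2 and Cntn2 (0.90 each), Bcas1 like Tmcc3 (0.91) and Trf (0.89), and Sox10 like Aspa (0.87) and Cplx3 (0.86). Ptprz1 was most like Zfhx4 (0.93) and Stk38l (0.90), and Enpp6 like Slc15a3 (0.90) and Gm29455 (0.89). Nkx2-2 was most like Lhfpl2 (0.88) and Tcp11l2 (0.87), and Olig2 like Gm42496 (0.86) and Lsm12 (0.82). Gpr17 was most like Pcp4 (0.85) and Ampd3 (0.82), Pdgfra like Hist1h1e and Mrps35 (0.84 each), and Cspg4 like Ddx4 (0.81) and Adam9 (0.80). Of these genes Trf and Aspa are in the mature myelin list. Taking the highest of 20914 genes over 18 libraries favours high correlations, so these likenesses are descriptions only. Most of the 10 genes most like the mean left the top with rank correlation. For Ptprz1, zQ175 replicate 1 stood alone at 21.9 RPKM, and its part in these values was not tested.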

How the data were processed

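Striatal total RNA from each of 18 mice was sequenced with a stranded kit, and groups were taken from the labels. Per the submitters' processing notes and the study's methods, reads were trimmed with Trimmomatic and aligned to GRCm38 with HISAT2 2.1.0, reads that were duplicated, unaligned or poorly aligned were removed, and Subread 1.6.2 counted reads per gene. The values deposited by the authors are raw counts, with summed exon lengths beside them. Whether counting used strand is not given in the sources used here. Counts were tested here in R 4.3.3 with edgeR 4.0.16 (quasi-likelihood test, TMM, filterByExpr, 20914 genes, all 18 libraries in 1 fit with genotype as the only factor), and DESeq2 1.42.0 served as an alternative. A gene was called at a Benjamini-Hochberg adjusted p under 0.1 over all genes tested. RPKM used TMM-scaled library sizes and the deposited lengths, and log2 CPM used a prior count of 2. Depth was 13612381 to 22702547 counts per library, and counting error adds to the spread between mice for the lowest counts. The edgeR script was tested on simulated data.

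The 10 genes and the lists were chosen with earlier results of these data known. Named besides the 10 were Csnk2a2, genes of the lists past an adjusted p of 0.1 (at most 5 a list and comparison) or, where none passed, the 3 of lowest p in zQ175 against WT, the 10 genes most like the mean of the 10 genes, and the 2 most like each. A further gene that the rule names is not reported here. Further genes were named as called by either tool, after their values were seen. Of the other marker lists in zQ175 against WT, C1qa was called lower among 7 microglia genes, Adora2a, Penk and Ppp1r1b lower among 9 striatal projection neuron genes and Tbr1 higher among 6 tested cortical neuron genes, while the lowest edgeR adjusted p over the lists for astrocytes, mural cells, vascular fibroblasts, endothelial cells and choroid plexus was 0.161, for Ttr. Htt reads do not separate its alleles, and its log2 fold change in zQ175 against WT was -0.04. Alternatives were DESeq2, other scalings and filters, a block for the replicate number, a fit of just the groups in question, a covariate for Xist, a robust fit, an adjusted p of 0.05, levels without gene length or without TMM, rank correlation and leaving out each mouse. Leaving out the 5 libraries set apart, counting calls in the myelin list under each alternative, and refitting the lists and Id4, were chosen after seeing the data.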

Additional observations from a re-analysis of the deposited data

Results flagged for a closer look

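Among the 30 sets of 5 libraries checked (10 genes in 3 genotypes), 2 had a library whose gap to the nearest of the others exceeded Dixon's critical value of 0.71 of the set's range, which chance does in about 1 of 20 sets. Pdgfra in zQ175 replicate 3 was at 4.17 RPKM, above the other zQ175 mice at 3.80 to 3.89 RPKM. Ptprz1 in zQ175 replicate 1 was at 21.9 RPKM, above the other zQ175 mice at 15.0 to 15.8 RPKM, and without this library its log2 fold change in zQ175 against WT was 0.06 in place of 0.18.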

How the results depend on the processing

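Of 1730 refits of the 60 log2 fold changes of the 10 genes, 1679 kept their direction and side of the threshold, 1 passed it (Olig2 with DESeq2) and 50 changed sign, all among 20 values no larger than their standard error. The causes of these sign changes were not tested. Many of the 1730 refits could hardly alter a value, so the count of 1679 does not measure robustness. The stricter limit on the adjusted p reused the same fold changes and could not add a call. Leaving out a mouse of neither group compared moved a fold change little. For example, Olig2 in zQ175 against WT stayed at -0.46 with each CK2a'(+/-) mouse left out in turn. DESeq2 called 1 of the 10 genes in zQ175 against WT, and each mouse left out in turn gave 0 of 10 in all comparisons. With only 3 CK2a'(+/-) mice and single genes at 50 counts, small differences are not detectable here.

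Genes called in zQ175 against WT (230) numbered 855 with DESeq2, 451 with no filter, 0 with only the groups compared, 98 with the replicate block, 51 at an adjusted p of 0.05, 1 without the libraries set apart and 0 to 587 with 1 mouse left out. Of these, 0 were called without WT replicate 3 or zQ175 replicate 5, 10 without WT replicate 1, 77 without zQ175 replicate 1 and 587 without WT replicate 2. Myelin genes called lower there (9) numbered 0 with only the groups compared, 0 without the libraries set apart and 0 to 13 with 1 mouse left out. In zQ175:CK2a'(+/-) against WT (3) the genes called numbered 123 with DESeq2 and 85 with no filter (1 myelin gene in each), 1 with upper-quartile scaling, only the groups compared, the replicate block or 0.05, 6 with the robust fit, 0 without the libraries set apart and 1 to 34 with 1 mouse left out. In zQ175:CK2a'(+/-) against zQ175 (3) there were 39 with DESeq2, 51 with no filter, 1 with the replicate block and 1 to 6 with 1 mouse left out. In CK2a'(+/-) against WT (3) there were 11 with DESeq2, 19 with no filter, 1 with the replicate block, 0 with only the groups compared or without the libraries set apart and 1 to 9 with 1 mouse left out. In zQ175:CK2a'(+/-) against CK2a'(+/-) (124) there were 322 with DESeq2, 297 with no filter, 461 with only the groups compared, 12 with the replicate block, 75 with the Xist level, 27 at 0.05, 17 without the libraries set apart and 6 to 221 with 1 mouse left out. Myelin genes called lower there (4) numbered 2 with upper-quartile scaling, 0 with the block, the Xist level, 0.05 or without the libraries set apart, and 0 to 4 with 1 mouse left out. In the interaction (1) there were 19 with DESeq2, 10 with no filter, 0 with upper-quartile scaling, the Xist level, 0.05 or without the libraries set apart, and 0 to 2 with 1 mouse left out.

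Signs changed without the libraries set apart for Cspg4 (0.01), Enpp6 (-0.06) and Nkx2-2 (-0.10) in zQ175 against WT, Sox10 (0.05) and Ptprz1 (0.00) in zQ175:CK2a'(+/-) against WT, Pdgfra (-0.04) in zQ175:CK2a'(+/-) against zQ175, Ptprz1 (-0.03) in CK2a'(+/-) against WT, and Olig2 (0.28) and Ptprz1 (0.02) in zQ175:CK2a'(+/-) against CK2a'(+/-). They changed with the Xist level for Olig1 (0.02) in CK2a'(+/-) against WT and for Olig2 (0.00) and Ptprz1 (0.02) in zQ175:CK2a'(+/-) against CK2a'(+/-), where Olig2 had 0.03 with the replicate block. With 1 mouse left out, zQ175 against WT ran from -0.09 to 0.05 for Cspg4, -0.08 to 0.20 for Enpp6 and -0.03 to 0.26 for Nkx2-2. Against WT, zQ175:CK2a'(+/-) ran from -0.09 to 0.05 for Gpr17, -0.01 to 0.05 for Ptprz1 and -0.19 to 0.03 for Sox10, and against zQ175 from -0.04 to 0.04 for Pdgfra and -0.12 to 0.00 for Cspg4. CK2a'(+/-) against WT ran from -0.12 to 0.07 for Olig1, -0.69 to 0.16 for Nkx2-2, -0.02 to 0.12 for Ptprz1, -0.24 to 0.06 for Sox10 and -0.25 to 0.12 for Bcas1. Against CK2a'(+/-), zQ175:CK2a'(+/-) ran from -0.22 to 0.27 for Olig2, -0.11 to 0.03 for Ptprz1, -0.24 to 0.13 for Bcas1, -0.04 to 0.09 for Cspg4 and -0.12 to 0.18 for Sox10. The interaction ran from -0.02 to 0.11 for Cspg4 and 0.00 to 0.36 for Bcas1.

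Replicate numbers did not pair the mice, since deviations of same-numbered libraries correlated at -0.14 to 0.12 and 2 of 24 pairs passed 0.1. The block called 0 of the 10 genes in all comparisons. Id4 in zQ175:CK2a'(+/-) against CK2a'(+/-) had -0.66 with the block (edgeR adjusted p = 0.261). Of the 10 genes most like the mean, 3 stayed among the top with rank correlation and 5 to 9 with 1 mouse left out. In the order of levels 2 of 10 ranks were kept in CPM, which ignores gene length, and 10 of 10 without TMM factors.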
